A study of Arabidopsis thaliana with 4 samples.

Results

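A set of 10 loci of the secondary cell wall were followed through RNA sequencing of Arabidopsis thaliana seedlings: IRX9, IRX10, IRX14 and IRX15 of xylan synthesis, LAC4 and LAC17 of lignin polymerisation, FLA11 and FLA12 of the fasciclin-like arabinogalactan proteins, and CTL2 and COBL4 of cellulose deposition. They were named by locus as genes of these roles, with earlier results of these data known, and are 10 of the 33518 loci in the count tables. The seedlings were 5 days old and grown on MS medium under constant light. Wild-type Col-0 was set beside HBI1-Ox, a line in the labels' notation 35S::HBI1-YFP, in which the bHLH factor HBI1 is fused to yellow fluorescent protein and driven by the 35S promoter of cauliflower mosaic virus. Each group had 2 libraries, and no other treatment or allele is given in the labels.

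Secondary walls are laid down inside the primary wall of cells that conduct water or bear load, chiefly xylem vessels and fibres, after those cells stop expanding. They combine cellulose from a dedicated set of synthases, xylan that binds to the cellulose, and lignin that seals and stiffens the whole. Mutants in many of these genes have collapsed vessels, which gave the name irregular xylem (IRX). In a young seedling such walls are found mainly in the protoxylem and metaxylem strands.

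Reads on genes came to between 10785178 and 19647745 per library. HBI1 (AT2G18300) was examined first as a check of the labels, and stood at 99.3 and 84.6 CPM (read counts scaled to a common, TMM-normalised library size) in Col-0 against 1567 and 1509 CPM in HBI1-Ox, where reads of the transgene and of the native gene cannot be told apart. A single overexpressing line was compared, so its HBI1 level cannot be told apart from any other feature of that line. The HBI1-Ox libraries hardly differed from each other (64 of 20127 genes beyond counting error), whereas the Col-0 libraries differed in 2322 of 20074. Since the labels name no separate cultures for the libraries of a group, p-values measure only the spread among these 4 libraries, and that spread may be technical. In whole seedlings, more xylem cells and more RNA per xylem cell cannot be told apart.

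Of the 10 genes, all of which passed the low-count filter, 6 rose in HBI1-Ox, none fell and 4 did not pass the test (edgeR's quasi-likelihood test with p adjusted by Benjamini-Hochberg over all 20320 genes tested, threshold 0.05). The genes that rose were IRX9, COBL4, LAC4, FLA11, CTL2 and LAC17, by 1.23-fold to 1.66-fold. Over all tested genes 8.33% rose and 7.15% fell. The median log2 change was 0.41 for the 10 genes and -0.01 for all tested genes. In 7 of the 10 both HBI1-Ox libraries lay above both Col-0 libraries, as in 29.7% of tested genes, and in 0 of the 10 both lay below, as in 31% of tested genes. Summed over the 10 genes, the level was 196 and 194 CPM in Col-0 and 256 and 248 CPM in HBI1-Ox. With the near-identical HBI1-Ox libraries summed as 1 sample, the median log2 change of the 10 genes was again 0.41 but only LAC4 still passed, and 1.48% of tested genes rose. The authors' deposited table holds 1256 genes, beside 33518 loci in the count tables, by a rule not given in the sources used here. Among them the authors' deposited table gives 3 of the 10: IRX9 at 0.74, COBL4 at 0.71 and LAC4 at 0.61 on the log2 scale. The smallest absolute log2 change among its genes is 0.56, and FLA11, CTL2 and LAC17 lay below that value in the fit used here.

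**Figure D1:**
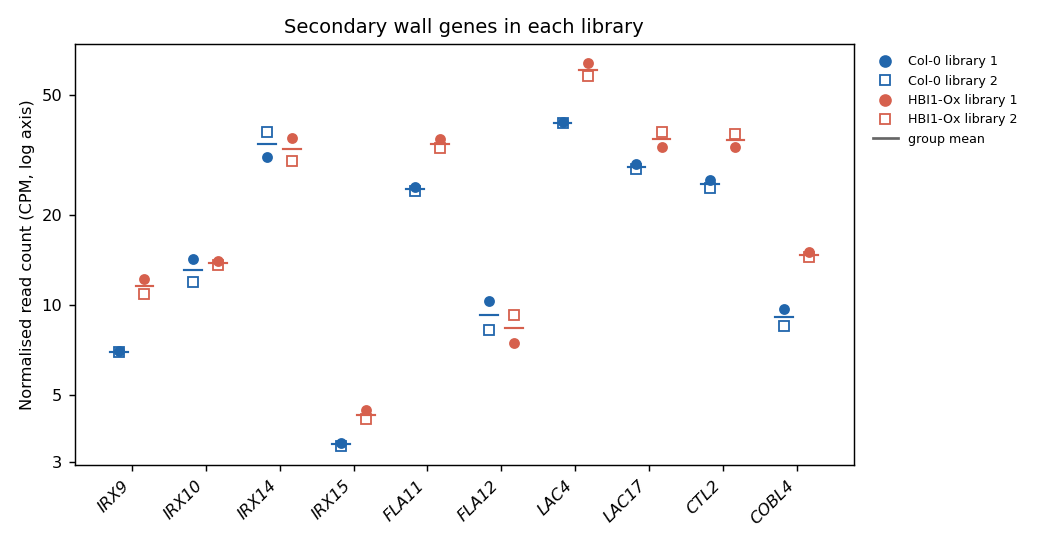
Normalised read count (CPM, log axis) of the 10 secondary wall genes in each library, Col-0 in blue and HBI1-Ox in orange-red, library 1 as filled circles and library 2 as open squares, with a bar at each group mean of 2 libraries. IRX10, IRX14 and FLA12 overlap between the groups, and in the other 7 genes both HBI1-Ox libraries lie above both Col-0 libraries.

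Levels between genes are compared per kilobase of annotated exon (CPM per kb). In Col-0, FLA11 was highest at 26.8 ± 0.5 CPM per kb (mean ± SD, n = 2), followed by LAC4 at 18.1 ± 0.1, CTL2 at 15.6 ± 0.7, IRX14 at 14.1 ± 1.9 and LAC17 at 13.8 ± 0.4. CTL2 and IRX14 overlapped in this order, as did IRX14 and LAC17. IRX10 at 7.19 ± 0.89 and FLA12 at 6.75 ± 1.04 CPM per kb also overlapped, and IRX9 (4.72 ± 0.04), COBL4 (4.35 ± 0.40) and IRX15 (2.46 ± 0.04) were lowest. In HBI1-Ox the order began with the same 3 genes, FLA11 at 38.0 ± 1.9, LAC4 at 27.2 ± 2.0 and CTL2 at 21.9 ± 1.6 CPM per kb, and went on with LAC17 at 17.0 ± 1.3 and IRX14 at 13.6 ± 1.7. IRX9, at 7.81 ± 0.63 CPM per kb, there stood beside IRX10 at 7.61 ± 0.18, and these were the only neighbours in the HBI1-Ox order whose libraries overlapped. COBL4 followed at 7.04 ± 0.20, FLA12 at 6.11 ± 0.93 and IRX15 at 3.09 ± 0.16 CPM per kb.

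Xylan is a chain of xylose units, and IRX9, IRX14 and IRX10 encode glycosyltransferases that together extend it in the Golgi. IRX9 (AT2G37090; chromosome 2, 15587394 to 15589369, minus strand, TAIR10.1, 3 exons) stood at 7.01 and 6.94 CPM in Col-0 and at 12.2 and 10.9 CPM in HBI1-Ox. Both HBI1-Ox libraries were higher than both Col-0 libraries. The log2 change of IRX9 was 0.73 with a standard error of 0.13, written 0.73 ± 0.13 as for all log2 changes here (edgeR adjusted p = 0.0126). IRX10 (AT1G27440; chromosome 1, 9528967 to 9531489, minus strand, 4 exons), named GUT2 in the gene table, had 14.2 and 11.9 CPM in Col-0 and 14.03 and 13.6 CPM in HBI1-Ox. The groups overlapped, with Col-0 holding both the highest and the lowest library, and the log2 change of 0.08 ± 0.12 did not pass (edgeR adjusted p = 0.698).

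IRX14 (AT4G36890; chromosome 4, 17379173 to 17382028, minus strand, 3 exons), which like IRX9 is a family 43 glycosyltransferase, had 31.1 and 37.7 CPM in Col-0 and 36.1 and 30.3 CPM in HBI1-Ox. The libraries of each group differed from each other by more than the group means did, and the log2 change was -0.04 ± 0.12 (edgeR adjusted p = 0.841). IRX15 (AT3G50220; chromosome 3, 18617424 to 18618816, minus strand, 1 exon) encodes a DUF579 protein of the Golgi that is needed for xylan of normal length. Its counts were the lowest of the set, with 47 and 39 reads for Col-0 against 83 and 59 for HBI1-Ox. At 3.47 and 3.38 against 4.46 and 4.15 CPM the HBI1-Ox libraries were both higher, but the log2 change of 0.33 ± 0.18 did not pass (edgeR adjusted p = 0.262).

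Each xylan gene has a close relative in the genome, and the changes of each pair are given side by side. IRX9L, the homologue of IRX9, had a log2 change of 0.14 ± 0.08 (edgeR adjusted p = 0.29), and the ratio of IRX9 to IRX9L per kb of exon went from 0.325 and 0.289 in Col-0 to 0.475 and 0.449 in HBI1-Ox. In the IRX14 pair it was IRX14L that passed: IRX14L rose from 7.97 and 6.16 CPM to 11.2 and 11.1 CPM (log2 change 0.65 ± 0.15, edgeR adjusted p = 0.0329). IRX14L had 108 and 71 reads for Col-0 against 208 and 158 for HBI1-Ox. Its locus overlaps AT5G09845 and AT5G67240 on the opposite strand, whereas IRX14 overlaps no gene. The part of reads from those genes in its count was not tested. The ratio of IRX14 to IRX14L per kb was 2.73 and 4.27 for Col-0 against 2.25 and 1.90 for HBI1-Ox, and IRX14 stayed the higher of the pair in every library. The log2 change was 0.04 ± 0.07 for IRX10L, named GUT1 in the gene table, and 0.09 ± 0.14 for IRX15L; neither passed (edgeR adjusted p = 0.746 and 0.722). IRX10L and IRX15L stood above IRX10 and IRX15 per kb in all 4 libraries. The difference in change between the genes of a pair was not tested.

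**Figure D2:**
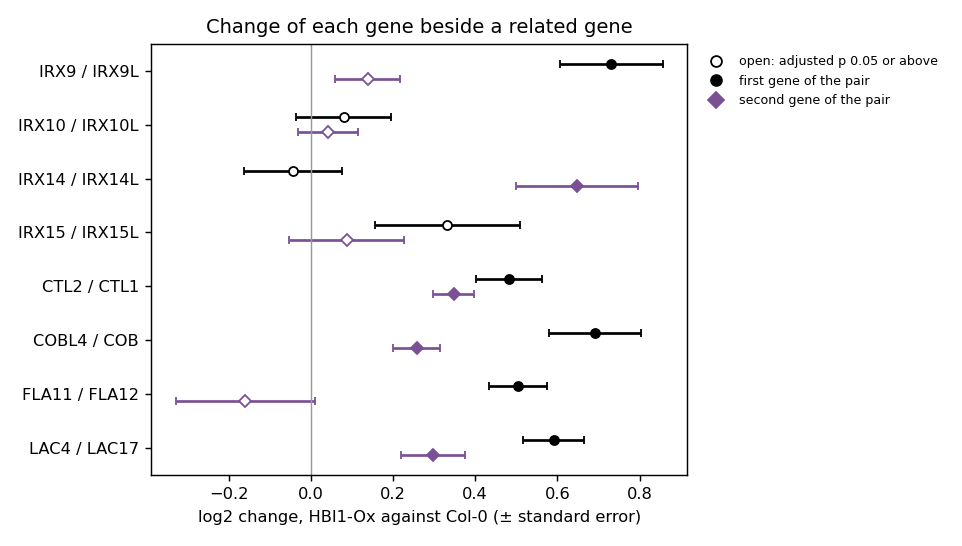
Log2 change in HBI1-Ox against Col-0 with its standard error for 8 pairs of related genes, the first named gene as a black circle and the second as a purple diamond, filled where the adjusted p is under 0.05. IRX9 lies above IRX9L and FLA11 above FLA12, while IRX14L lies above IRX14.

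Reads of such pairs could in principle be shared, and the sequences limit how far. Coding identity ran from 60.8% for IRX9 and IRX9L to 85.0% for IRX15 and IRX15L, and the longest stretch that both transcripts share was 48 bases in the IRX15 pair and 29 bases or less in the other 7 pairs. No read stands in the row for reads without a unique alignment in any of the count files, and how such reads were handled earlier was a step not given in the sources used here.

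Another 15 listed xylan genes gave 4 rises, no fall and 11 that did not pass, with a median log2 change of 0.26. Among all tested genes 8.33% rose and 7.15% fell. GUX1, which adds glucuronic acid side groups to xylan, rose from 6.89 ± 0.17 to 10.4 ± 0.4 CPM (mean ± SD, n = 2 each). ESK1, a xylan acetyltransferase also known as TBL29, rose by 0.36 ± 0.08 on the log2 scale, and RWA2, which supplies acetyl groups for wall polymers, by 0.28 ± 0.06. The fourth was the glucuronoxylan methyltransferase gene GXMT1 at 0.27 ± 0.07, which is named because the count is small. The edgeR adjusted p lay between 0.0244 and 0.0377 for these 4 genes. With the DESeq2 Wald test in place of edgeR's none of the 15 passed. Over all tested genes DESeq2 gave 1150 rises and 844 falls. With scaling by total counts 1 of the 15 rose and none fell, and none passed with the HBI1-Ox libraries summed.

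Lignin forms in the wall when laccases and peroxidases oxidise its monomers, the monolignols. LAC4 (AT2G38080; chromosome 2, 15934244 to 15937616, plus strand, 6 exons), also called IRX12, had 40.6 and 40.3 CPM in Col-0 and 64.0 and 57.8 CPM in HBI1-Ox. The groups were well apart, and LAC4 rose by 0.59 ± 0.07 (edgeR adjusted p = 0.00412). LAC17 (AT5G60020; chromosome 5, 24167996 to 24170462, plus strand, 6 exons), which acts together with LAC4 in lignification of stems, had 29.4 and 28.4 CPM in Col-0 and 33.7 and 37.6 CPM in HBI1-Ox. The groups did not overlap, and the rise of 0.30 ± 0.08 passed only just (edgeR adjusted p = 0.0499). It passed in 4 of 12 other settings. AT5G60022, an antisense gene that covers 2266 bases of the LAC17 locus, had at most 0.26 CPM in any library. Whether counting used strand was a setting not given in the sources used here, so reads of overlapping genes on opposite strands may not be told apart.

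Laccases form a large family, and many members act outside lignin. Of 15 other laccases listed, 12 were tested. None rose, 4 fell and 8 did not pass, with a median log2 change of -0.50. In the same fit 8.33% of all tested genes rose and 7.15% fell. LAC7 fell from 104 ± 3 to 71.4 ± 3.1 CPM (mean ± SD, n = 2 each), LAC5 from 13.1 ± 0.4 to 8.79 ± 0.11 CPM and LAC1 from 17.5 ± 2.0 to 12.1 ± 0.7 CPM. LAC16, the fourth and named because the count is small, fell by 0.83 on the log2 scale from a mean of 4.797 CPM. The edgeR adjusted p was 0.00328 for LAC7, 0.0163 for LAC5, 0.026 for LAC1 and 0.0416 for LAC16. DESeq2's Wald test gave 1 fall and no rise among the 12. LAC11, which shares the lignifying role of LAC4 and LAC17 and is named for that role after its value was seen, had 45.03 and 41.8 CPM in Col-0 and 42.5 and 45.9 CPM in HBI1-Ox, with overlapping groups (edgeR adjusted p = 0.863). Scaling by total counts gave 995 rises and 3494 falls over all 20320 tested genes. With scaling by total counts 7 laccases fell, and none passed with the HBI1-Ox libraries summed.

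The monolignols are made from phenylalanine by a chain of enzymes. Of 16 tested, 2 rose, 1 fell and 13 did not pass, with a median log2 change of 0.04. These shares were close to the 8.33% that rose and 7.15% that fell over all tested genes. PAL2, one of the phenylalanine ammonia-lyases at the entry to the pathway, fell from 214 ± 15 to 158 ± 0.5 CPM. COMT1, a methyltransferase on the way to syringyl lignin, rose by 0.34 ± 0.06, and C4H, the hydroxylase that follows PAL, by 0.20 ± 0.05. The edgeR adjusted p was 0.00737 for PAL2, 0.0165 for COMT1 and 0.0486 for C4H. Several of these enzymes also serve flavonoid and other phenylpropanoid synthesis. With scaling by total counts 1 rose and 2 fell, where 995 of all 20320 tested genes rose and 3494 fell. With the DESeq2 Wald test 1 rose and 1 fell, where 1150 of all tested genes rose and 844 fell. With limma-voom 4 rose and 1 fell, where 1770 of all tested genes rose and 1475 fell. Calls in fits that leave 1 sample in a group depended on which group kept both libraries.

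Fasciclin-like arabinogalactan proteins are secreted glycoproteins of the cell surface, and FLA11 and FLA12 are the members most closely tied to secondary walls in stems. FLA11 (AT5G03170; chromosome 5, 752750 to 753657, minus strand, 1 exon) had 24.7 and 24.0 CPM in Col-0 and 35.7 and 33.3 CPM in HBI1-Ox. The groups did not overlap, and FLA11 rose by 0.50 ± 0.07 (edgeR adjusted p = 0.00611). The gene on the opposite strand, AT5G03160, overlaps 56 bases of it and had a log2 change of -0.22 ± 0.08, which did not pass (edgeR adjusted p = 0.123). FLA12 (AT5G60490; chromosome 5, 24325457 to 24326827, minus strand, 1 exon) had 10.3 and 8.24 CPM in Col-0 and 7.47 and 9.27 CPM in HBI1-Ox. Its groups overlapped, and its log2 change of -0.16 ± 0.17 did not pass (edgeR adjusted p = 0.574). The ratio of FLA11 to FLA12 per kb of exon was 3.63 and 4.40 for Col-0 against 7.21 and 5.42 for HBI1-Ox, without overlap between the groups.

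CTL2 and COBL4 act beside the cellulose synthases. CTL2 (AT3G16920; chromosome 3, 5776264 to 5778052, minus strand, 3 exons) encodes a chitinase-like protein that affects how cellulose chains assemble. It had 26.0 and 24.5 CPM in Col-0 and 33.5 and 37.2 CPM in HBI1-Ox, without overlap, and rose by 0.48 ± 0.08 (edgeR adjusted p = 0.011). COBL4 (AT5G15630; chromosome 5, 5084524 to 5086811, plus strand, 6 exons), also called IRX6, encodes a membrane-anchored protein of the COBRA family needed for cellulose in secondary walls. It had 9.67 and 8.50 CPM in Col-0 and 15 and 14.4 CPM in HBI1-Ox. The HBI1-Ox libraries lay close together and well above, and COBL4 rose by 0.69 ± 0.11 (edgeR adjusted p = 0.0103).

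The primary wall relatives of both genes rose as well, from much higher levels, in a fit where 8.33% of all tested genes rose. CTL1, also called POM1, went from 629 and 617 CPM to 788 and 798 CPM, a log2 change of 0.35 ± 0.05 (edgeR adjusted p = 0.00695). COB, which guides cellulose in expanding root cells, went from 153 and 146 CPM to 177 and 180 CPM, a log2 change of 0.26 ± 0.06 (edgeR adjusted p = 0.0289). Per kb of exon CTL2 stood at between 0.0468 and 0.0551 of CTL1. COBL4 stood at 0.0700 and 0.0644 of COB in Col-0 and at 0.0938 and 0.0884 in HBI1-Ox. Of the 6 close relatives 3 rose and 3 did not pass; with scaling by total counts 1 rose, and with the HBI1-Ox libraries summed none did.

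The synthases of secondary wall cellulose, CESA4, CESA7 and CESA8, work beside these accessory genes. CESA8 went from 23.7 and 21.7 CPM to 45.9 and 42.1 CPM, CESA7 from 34.3 and 28.8 to 50.8 and 52.5 CPM, and CESA4 from 47.2 and 44.7 to 63.5 and 66.3 CPM. All 3 rose, also with scaling by total counts, and 1 of them passed with the HBI1-Ox libraries summed. The log2 change was 0.95 ± 0.08 for CESA8, 0.71 ± 0.09 for CESA7 and 0.50 ± 0.07 for CESA4 (edgeR adjusted p = 0.000987, 0.00467 and 0.00528). All 3 rose with the DESeq2 Wald test as well. In the edgeR fit 8.33% of all tested genes rose. All 3 loci overlap a gene on the opposite strand, and CESA4 also one on its own strand.

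**Figure D3:**
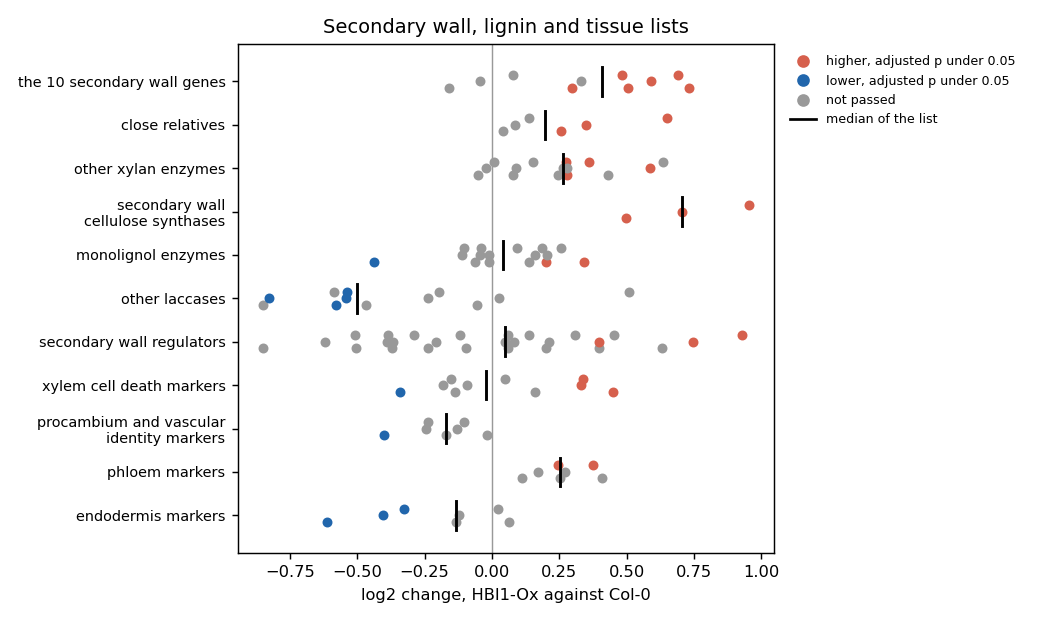
Log2 change in HBI1-Ox against Col-0 for each tested gene of 11 lists, coloured where the adjusted p is under 0.05, with a black bar at each list's median. The medians are 0.41 for the 10 secondary wall genes, 0.71 for the cellulose synthases and -0.50 for the other laccases.

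Secondary wall genes are switched on by a cascade in which NAC factors (the VND group in vessels, NST and SND1 in fibres) turn on MYB46 and MYB83, which turn on further MYB factors and the wall enzymes. Among 32 listed regulators 27 were tested. Of these 3 rose, none fell and 24 did not pass, with a median log2 change of 0.05. Over all tested genes 8.33% rose and 7.15% fell, so the share of regulators that rose was close to that of all genes. MYB46 (AT5G12870) had 3.17 and 3.30 CPM in Col-0 and 5.75 and 5.06 CPM in HBI1-Ox. Its log2 change was 0.75 ± 0.18 (edgeR adjusted p = 0.0364). MYB43, a factor of the same network, rose by 0.40 ± 0.10, and XND1, a NAC protein that holds back xylem differentiation, by 0.93 ± 0.24 (edgeR adjusted p = 0.0483 and 0.0489). XND1 rests on few reads, 17 and 15 for Col-0 against 45 and 35 for HBI1-Ox. MYB46 had 43 and 38 reads for Col-0 against 107 and 72 for HBI1-Ox. No regulator passed with the DESeq2 Wald test or with a replicate block in the edgeR fit, and 2 rose with limma-voom. The fibre regulators NST1 and SND1, named because they are the listed regulators without a read, had 0 reads in every library. Scaling by total counts gave 995 rises and 3494 falls over all 20320 tested genes. With scaling by total counts none of the regulators rose and 3 fell, and none passed with the HBI1-Ox libraries summed.

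Markers of the tissues that hold secondary walls moved in both directions. Of 10 listed xylem genes, mostly markers of cell death and wall patterning, 3 rose, 1 fell and 6 did not pass. Their summed level was 461 and 435 CPM in Col-0 and 472 and 484 CPM in HBI1-Ox. The list and its sum include the peroxidase genes PRX64 and PRX72, neither of which passed. PRX64 had a mean of 55.0 CPM in Col-0 and 49.9 CPM in HBI1-Ox, and PRX72 had 90.85 and 85.1 CPM. The cysteine peptidase genes XCP2 and XCP1 rose by 0.34 ± 0.07 and 0.33 ± 0.07, and the nuclease gene BFN1, named because the count is small, by 0.45 ± 0.11. TED7, a membrane protein of differentiating vessels, fell by 0.34 on the log2 scale. The edgeR adjusted p was 0.0199 for XCP2, 0.0286 for XCP1, 0.0416 for BFN1 and 0.0234 for TED7. In this fit 8.33% of all tested genes rose and 7.15% fell. DESeq2's Wald test gave 2 rises and no fall among the 10. Under scaling by total counts none of the 10 rose and 4 fell, where 995 of all 20320 tested genes rose and 3494 fell.

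Markers of neighbouring cell types were taken from the same fit, in which 8.33% of all tested genes rose and 7.15% fell. Of 8 procambium and vascular identity genes, 7 were tested, none rose and 1 fell: ACL5, a thermospermine synthase that delays vessel maturation, went from 47.2 ± 3.7 to 35.6 ± 3.3 CPM (edgeR adjusted p = 0.0322). REV and ATHB15, homeodomain factors of vascular patterning, were at -0.11 ± 0.07 and -0.13 ± 0.06 on the log2 scale; neither passed (edgeR adjusted p = 0.382 and 0.222). The summed level of the list was 233 and 243 CPM in Col-0 and 212 and 207 CPM in HBI1-Ox. LHW, named because it had no read, stood at 0 reads in every library. Whether this came from the tissue or from the counting was not tested. Of 7 phloem genes 2 rose, the sieve element genes SEOR2 (0.37 ± 0.09) and SEOR1 (0.25 ± 0.06), while the sucrose carrier gene SUC2 had 0.11 ± 0.06 and did not pass (edgeR adjusted p = 0.0404, 0.0424 and 0.264). Their sum was 281 and 261 CPM in Col-0 and 314 and 313 CPM in HBI1-Ox. Of 8 endodermis genes 7 were tested and 3 fell, the Casparian strip genes CASP2, CASP5 and CASP4, with log2 changes of -0.33 ± 0.06, -0.40 ± 0.10 and -0.61 ± 0.15 (edgeR adjusted p = 0.0193, 0.0452 and 0.0392). With scaling by total counts 3 procambium, no phloem and 4 endodermis genes passed, and each of these 7 fell; with the HBI1-Ox libraries summed no marker of any of these tissues passed. Over all 20320 tested genes, scaling by total counts gave 995 rises and 3494 falls. The endodermis sum was 241 and 253 CPM in Col-0 and 231 and 212 CPM in HBI1-Ox. DESeq2's Wald test called no procambium or endodermis gene and gave 1 phloem rise. The part of any change in tissue make-up in the rise of the wall genes was not tested.

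The 250 bases before the annotated start were read from TAIR10.1 for the 10 genes, and searched on both strands for sequences linked to secondary wall control. The SMRE, the site of MYB46 and MYB83, was searched in its 8 forms. These were the form ACCAAAC, the form ACCAAAT, the form ACCAACC, the form ACCAACT, the form ACCTAAC, the form ACCTAAT, the form ACCTACC and the form ACCTACT. The AC elements of lignin genes are 3 of them, the form ACCTACC, the form ACCAACC and the form ACCTAAC. The tracheary element-regulating element (TERE) was searched as CTTNAAAGCNA. FLA11 and LAC17 are shown because they rose and hold such matches, and IRX14 because it holds 2 SMRE matches and did not pass. Capitals mark the matches, and each sequence runs 5′ to 3′ in the direction of the gene.
FLA11 (chr5:753658-753907, minus strand): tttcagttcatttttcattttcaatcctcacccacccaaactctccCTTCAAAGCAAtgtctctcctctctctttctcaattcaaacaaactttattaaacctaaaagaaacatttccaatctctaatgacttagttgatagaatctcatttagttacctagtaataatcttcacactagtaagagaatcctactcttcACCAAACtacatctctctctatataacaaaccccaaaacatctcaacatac
LAC17 (chr5:24167746-24167995, plus strand): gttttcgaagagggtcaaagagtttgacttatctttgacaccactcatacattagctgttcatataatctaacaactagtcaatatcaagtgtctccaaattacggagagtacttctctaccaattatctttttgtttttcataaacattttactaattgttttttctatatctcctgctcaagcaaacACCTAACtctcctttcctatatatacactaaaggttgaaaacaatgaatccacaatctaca
IRX14 (chr4:17382029-17382278, minus strand): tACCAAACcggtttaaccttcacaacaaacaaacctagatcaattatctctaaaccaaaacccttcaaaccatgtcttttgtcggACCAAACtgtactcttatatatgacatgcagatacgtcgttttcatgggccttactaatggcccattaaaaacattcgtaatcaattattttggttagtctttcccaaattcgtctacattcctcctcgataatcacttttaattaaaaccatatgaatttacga

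FLA11 had the TERE match, beginning 204 bases before the start, and an SMRE match at 51 bases; 101 of 27443 nuclear protein-coding genes (0.368%) hold a TERE match in this window. LAC17 had an AC element at 61 bases before the start, as 6.12% of genes do. SMRE matches were found in 6 of the 10 genes and in 29.4% of all genes. Of those 6, only FLA11 and LAC17 passed the test; IRX10, IRX14, IRX15 and FLA12 did not. IRX9, LAC4, CTL2 and COBL4 rose without an SMRE, AC or TERE match in this window. The E-box CANNTG, the general binding site of bHLH proteins, occurred in IRX9, IRX14, FLA12, LAC4 and LAC17, which is 5 of 10 against 55.3% of all genes. The G-box CACGTG, a form of the E-box, was in none of the 10 windows and in 6.49% of all. A match is a description of the letters and says nothing of binding, and its absence covers only this window.

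Averaged over the 10 genes, the profile across the 4 libraries, in log2 CPM centred on each gene, was -0.14 and -0.21 for Col-0 against 0.19 and 0.16 for HBI1-Ox. Not every gene followed this average: FLA12 stood at 0.23 and -0.09 for Col-0 against -0.22 and 0.08 for HBI1-Ox, and IRX10 and IRX14 also overlapped between the groups. Among 12517 other genes that averaged 10 CPM or more, the 5 nearest by Euclidean distance were STY17, PLDDELTA, PDS3, PIP1A and AT2G40280, at distances of 0.014 to 0.022. A total of 406 genes lay within 0.1 of that average profile. The likeness rests on 4 libraries of 2 groups.

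Scaling bears on the size of all these changes. Without TMM factors, on total counts alone, the median over all tested genes was -0.16 on the log2 scale, against -0.01 with them. The median of the 10 genes was then 0.26, with 5 rises (IRX9, FLA11, LAC4, CTL2 and COBL4) and no fall. IRX10, which did not pass under either scaling, had a log2 change of 0.08 with TMM factors and -0.07 with total counts.

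**Figure D4:**
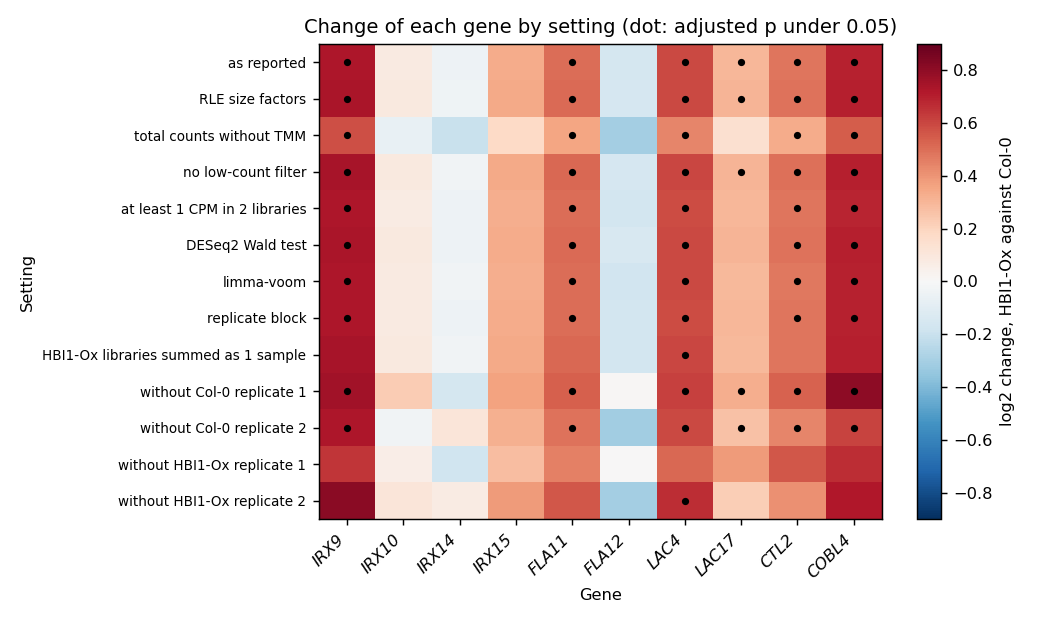
Log2 change in HBI1-Ox against Col-0 (colour) of each of the 10 genes under each of 13 settings, with a dot where the adjusted p is under 0.05. IRX9, FLA11, LAC4, LAC17, CTL2, COBL4 and IRX15 keep positive values throughout, and the dots thin out in the settings that leave 1 HBI1-Ox sample.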

How the data were processed

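Total RNA of whole seedlings was sequenced in 4 libraries, 2 each of Col-0 and HBI1-Ox, grouped and numbered by their titles. The authors deposited raw read counts per locus; per the submitters' processing notes TopHat, DESeq and the build TAIR10 were used; versions, the counting program and strand use were not given in the sources used here. Rows that name no gene held 13.2% to 13.7% of reads and were left out. The authors' deposited log2 fold changes were quoted only.

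Counts were filtered with filterByExpr (minimum count 10, minimum total 15), scaled with TMM factors and tested across all genes with edgeR 4.0.16 in R 4.3.3 (glmQLFit, glmQLFTest, 2 residual degrees of freedom), with Benjamini-Hochberg adjustment at 0.05. The biological coefficient of variation was 8.16%. Standard errors are the absolute log2 change divided by the square root of F. On simulated data for this comparison (20320 genes) 80% of 2-fold and 53% of 1.5-fold changes were recovered. Of 20120 unchanged genes 6 were called. Simulated counts were given the same spread in both groups, while the Col-0 libraries here differed far more than the HBI1-Ox libraries. The simulated rates therefore need not hold for these data.

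Gene models, promoters and coordinates come from RefSeq's TAIR10.1 annotation, whose nuclear loci were matched by locus name; 130 of 130 entries in 11 lists matched. The genes and lists were chosen with earlier results of these data known. All 10 genes and 6 relatives were named, with up to 3 genes of each other list by smallest adjusted p, filled by highest CPM. Outside this rule, and after their values were seen, GXMT1, LAC16 and BFN1 were named as the last of a small count and LAC11 for its role. PRX64 and PRX72 were likewise named as peroxidase genes, and NST1, SND1 and LHW as listed genes without a read. Alternatives were RLE factors, total counts, other filters, DESeq2 1.42.0, limma-voom (limma 3.58.1), a replicate block, each library left out and summed HBI1-Ox libraries.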

Additional observations from a re-analysis of the deposited data

How the results depend on the processing

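The count of 6 risen wall genes was 5 or 6 with RLE factors, total counts, either other filter, DESeq2, limma-voom and a replicate block, and 6 without Col-0 library 1 or 2. It was 1 with the HBI1-Ox libraries summed and 0 to 1 with either HBI1-Ox library left out; no wall gene fell in any setting. The sign stayed positive in each of the 12 settings for the 6 risen genes and IRX15, with log2 changes between 0.15 (LAC17, total counts) and 0.81 (IRX9, without HBI1-Ox library 2). Values that changed sign were those of genes that had not passed: IRX10 at -0.07 with total counts and between -0.035 and 0.229 with 1 library left out, IRX14 between -0.18 and 0.106 and FLA12 between -0.312 and 0.014 with 1 library left out. The cause was not tested. In the other lists together 20 genes rose and 10 fell in the main fit. These counts were 9 and 2 with DESeq2, 22 and 10 with limma-voom, and 13 and 8 with a replicate block.

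Over all genes, the 1693 rises and 1452 falls became 995 and 3494 with total counts and 307 and 271 with the HBI1-Ox libraries summed, and DESeq2 gave 844 falls. Leaving out 1 library gave 242 to 3516 rises and 187 to 3009 falls; fewest when an HBI1-Ox library was left out, a fit that takes the spread from the Col-0 libraries alone. The replicate block gave 5 risen wall genes, without LAC17 (edgeR adjusted p = 0.0678). Deviations of libraries with the same number had a correlation of 0.000376 across genes. Since the HBI1-Ox libraries hardly differ from each other, this value cannot show whether replicate numbers pair the samples. IRX15 rests on the fewest reads of the 10 genes, 39 to 83 per library; the part of depth in its missed call was not tested.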
